A study of Mus musculus with 6 samples.

Results

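The 9 genes described here encode the hormone receptors through which a fat cell is told to start or to hold back lipolysis: Adrb1, Adrb3, Gipr, Adra2a, Adora1, Ptger3, Niacr1, Npy1r and Oxtr. They were picked by name out of 19928 genes in a table of adipose tissue RNA. Their choice used measured values: the list was selected on the RAS to control contrast as well as on role, because Niacr1 was known to be higher and Oxtr lower with RAS in these libraries. Every difference between the groups given for a member is therefore a description and carries no test.

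RNA-seq was done on adipose tissue of KM mice, a strain name given by the labels, in 2 groups of 3 samples. The control samples have the diet label control, and the RAS samples come from mice given radix Angelica sinensis, the dried root called dong quai, fed at a dose of 10.00 g for each kg the animal weighs. The title speaks of a high-fat diet, and the question was whether the root counters obesity. Nothing in the sources used here gives the depot, age or sex, or how many mice stand behind a sample, so spreads are those between these samples and may be technical. By an estimate from the scaled counts, the libraries held 14379578 to 15748648 reads assigned to genes. On the first principal component, which took 31.0% of the variance, RAS 3 (34.5) and control 1 (-24.4) lay at opposite ends and the other libraries between -8.36 and 1.20, so results are also given without these 2. Markers of fat cells were high throughout, with Adipoq, the fat cell hormone adiponectin, at 2357 to 3460 FPKM. FPKM, fragments scaled by transcript length and library size, is a level per length and can be set side by side between genes.

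In fat cells, receptors coupled to the stimulatory G protein Gs switch on adenylyl cyclase, cyclic AMP rises, and protein kinase A then acts on perilipin and hormone-sensitive lipase so that stored triglyceride is broken down. Receptors coupled to the inhibitory G protein Gi lower cyclic AMP and restrain this. Oxtr couples mainly to Gq, which works through phospholipase C and calcium. In mouse fat Adrb3 is the classical target of noradrenaline released by sympathetic nerves.

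Levels ran from Adrb3, with 156.6 ± 36.5 FPKM in control (SD, n = 3, as for all means below), down to Adra2a, with 1.07 ± 0.58. The order in control was Adrb3, Ptger3, Oxtr, Adora1, Niacr1, Npy1r, Gipr, Adrb1 and Adra2a. Neighbours in that order overlapped in range for Ptger3 and Oxtr, for Npy1r and Gipr, and for Adrb1 and Adra2a, while the other neighbours were apart. With RAS the order was Adrb3, Ptger3, Adora1, Niacr1, Oxtr, Npy1r, Gipr, Adrb1 and Adra2a. There Ptger3 overlapped with Adora1, Adora1 with Niacr1 and Npy1r with Gipr, and Niacr1 and Oxtr nearly met, the lowest of the first and the highest of the second both being 18.5. Oxtr stood above Adora1 and Niacr1 in each control library and below Niacr1 in each RAS library. Among the 12606 genes with a mean of at least 1 FPKM, 96.8% had a lower mean than Adrb3, 87.4% a lower mean than Ptger3 and 6.3% a lower mean than Adrb1.

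**Figure D1:**
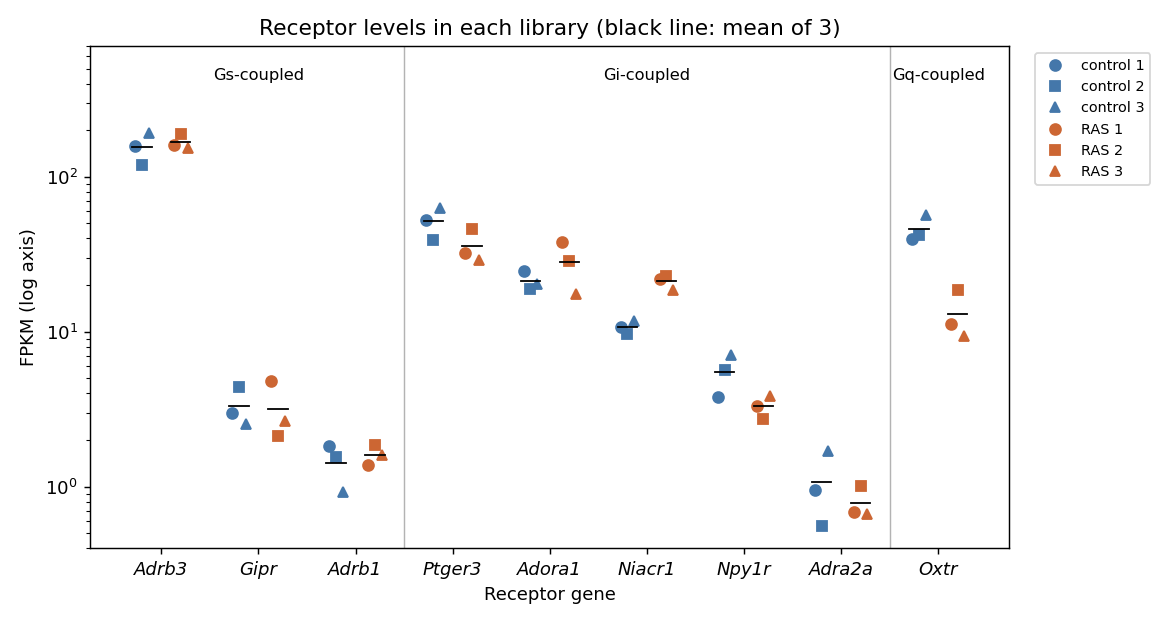
FPKM on a log axis for the 9 receptor genes in each of 6 libraries, control in blue and RAS in orange, with a black line at the mean of 3 libraries; the receptors are grouped by the G protein they couple to. The groups do not overlap for Niacr1, at 9.61 to 11.8 in control and 18.5 to 23.0 with RAS, and for Oxtr, at 40.0 to 56.4 and 9.36 to 18.5; for the other 7 genes they do.

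Of the 9 genes, 8 passed the minimum mean of 1 FPKM and entered the comparison on all genes; Adra2a, with a mean of 0.93 over the 6 libraries, did not. In that comparison, limma's moderated test on log2(FPKM + 1) with Benjamini-Hochberg adjustment, 0 of 12606 genes had an adjusted p under 0.05 (0.0% of genes tested; smallest 0.138) and 1294 had an unadjusted p under 0.05; the same test on the deposited scaled counts gave 0 and 1303. None of the 8 receptors is past that threshold. The group ranges were apart for 2 of the 8, Niacr1 on the higher and Oxtr on the lower side. Over all genes tested the ranges were apart for 17.9%, on the higher side for 5.42% and on the lower side for 12.5%. That split depended on scaling: of genes with ranges apart 30.3% were on the higher side, against 46.3% after division by median-ratio size factors. Nothing is read from the receptors' count, since the contrast chose them. Over all genes tested the median log2 difference was -0.04, and the central 90% lay between -0.42 and 0.41.

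**Figure D2:**
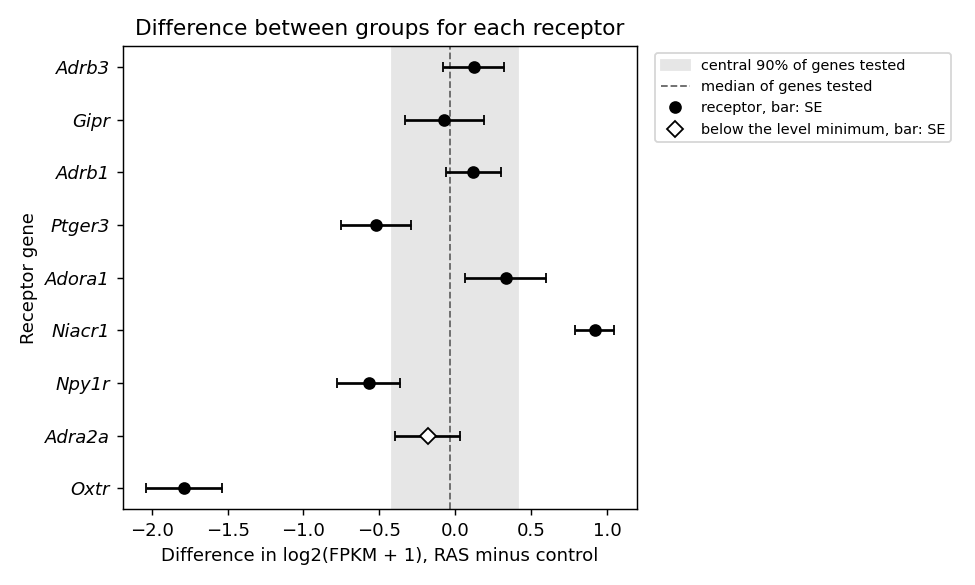
Difference in log2(FPKM + 1), RAS minus control, with its standard error for each receptor gene, beside the median (dashed) and the central 90% (grey) of all genes tested; Adra2a, under the level minimum, is an open diamond. Niacr1 at 0.92 lies to the right of the grey band, Npy1r at -0.57, Ptger3 at -0.52 and Oxtr at -1.79 lie to its left, and the other 5 lie inside it.

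Among the Gs-coupled receptors, Adrb3 (NCBI gene 11556; chromosome 8, 27225776 to 27229588, minus strand) was abundant and alike in both groups. It was at 158.5, 119 and 192 FPKM in controls 1 to 3 and at 161, 189 and 154 in RAS 1 to 3. The lowest and the highest value were both in control libraries, and the RAS values lay inside the control range. The log2 difference was 0.12 ± 0.20 (SE), and it was -0.01 under quantile normalization and -0.06 without control 2. Adrb3 rested on at least 5123 reads in every library. The annotation places a noncoding antisense gene, Gm45470, over it, and without strand information reads of the pair cannot be told apart.

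Adrb1, the beta receptor better known from the heart, was at 1.82, 1.54 and 0.92 FPKM in controls 1 to 3 and at 1.38, 1.87 and 1.59 in RAS 1 to 3. These values interleave, and the log2 difference of 0.12 ± 0.18 (SE) turned to -0.04 without control 3. Adrb1 stood on 26 reads in its lowest library, where counting error alone is about 19.6%. The FPKM of Adrb3 was 77.2 to 208 times that of Adrb1 within a library, and Adrb3 made up 95.3 to 98.2% of the summed FPKM of the 3 Gs-coupled receptors.

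Gipr, the receptor for the gut incretin hormone GIP, was at 2.97, 4.40 and 2.55 FPKM in controls 1 to 3 and at 4.78, 2.11 and 2.64 in RAS 1 to 3. RAS 1 held the highest and RAS 2 the lowest value of the 6 libraries. The log2 difference was -0.07 ± 0.26 (SE). Its sign changed in 3 of 14 alternatives, without control 2, without RAS 2 and without RAS 3. Of the 14, those that change only the FPKM minimum or add a replicate block leave any gene's log2 difference as it is. Gipr had 42 to 104 reads per library, with a counting error of about 15.4% at the lowest. The spread between libraries was 29.3% of the mean in control and 44.6% with RAS.

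Among the Gi-coupled receptors, Niacr1 differed most. It encodes the receptor for niacin and for the ketone body beta-hydroxybutyrate, which restrains lipolysis, and is named Hcar2 in the current annotation (NCBI gene 80885; chromosome 5, 123863570 to 123865516, minus strand, no overlapping gene). It was at 10.7, 9.61 and 11.8 FPKM in controls 1 to 3 and at 21.8, 23.0 and 18.5 in RAS 1 to 3. Each RAS library lay above every control library, and the ratio of the group means was 1.98. The log2 difference of 0.92 ± 0.13 (SE) stayed between 0.85 and 1.01 in 14 alternatives, the upper end being the value without control 1 and RAS 3. The spread within groups was 10.0% of the mean in control and 11.1% with RAS, the smallest of the 9 receptors in control. Reads behind it numbered 336 to 367 in control and 544 to 678 with RAS.

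Gpr81, the lactate receptor, is a relative of Niacr1 that lies 11.2 kb from it. It was at 32.9, 32.2 and 28.0 FPKM in controls 1 to 3 and at 41.5, 41.9 and 29.3 in RAS 1 to 3. Here RAS 3 lay among the controls, and the log2 difference was 0.25 ± 0.17 (SE; limma adjusted p = 0.635). The level of Niacr1 relative to Gpr81 was 0.299 to 0.420 in control and 0.526 to 0.631 with RAS, apart in range, though this ratio contains a gene chosen on the contrast. Since Niacr1 is also made by neutrophils and macrophages, their markers were read beside it. The 5 of 6 neutrophil markers in the table summed to 5.85 to 7.74 FPKM in control and to 6.46 to 16.9 with RAS, and 0 or 1 of them was listed at 0 in a library. The 6 macrophage markers summed to 120.5 to 136 FPKM and 114 to 131. Both sums overlapped between groups. The high neutrophil sums of RAS 1 and RAS 3 each came mainly from 1 gene, S100a8 at 15.5 in RAS 1 and S100a9 at 7.08 in RAS 3, while S100a9 was lowest in RAS 1 (0.48) and Csf3r had a log2 difference of -0.28. The part of these cells in the Niacr1 result was not tested. The 10 fat cell markers summed to 29020 to 37510 FPKM in control and 39640 to 56370 with RAS, apart in range with none listed at 0 in any library. Without Fabp4, a fatty acid carrier that makes up most of that sum, the other 9 summed to 8200 to 11070 and 9477 to 10780 and overlapped. One by one, 3 of the 10 were apart on the higher side (Fabp4, Cidec, Lipe), 1 on the lower (Lep, log2 -0.63) and 6 overlapped. Over all genes tested, 5.42% were apart on the higher and 12.5% on the lower side. The part of fat cells in the Niacr1 result was not tested either.

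Ptger3, the prostaglandin E2 receptor EP3, had the highest mean in both groups among the 5 Gi-coupled receptors of the chosen set. It was at 52.8, 39.4 and 63.0 FPKM in controls 1 to 3 and at 32.2, 46.2 and 28.9 in RAS 1 to 3. RAS 2 lay above control 2, so the groups overlapped, with means of 51.7 ± 11.8 and 35.8 ± 9.19. The log2 difference was -0.52 ± 0.23 (SE), and between -0.72 and -0.36 in the alternatives.

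Npy1r, a receptor for neuropeptide Y and peptide YY, was at 3.77, 5.69 and 7.07 FPKM in controls 1 to 3 and at 3.33, 2.73 and 3.85 in RAS 1 to 3. Control 1 fell between RAS 1 and RAS 3, and controls 2 and 3 lay above all RAS libraries. The log2 difference was -0.57 ± 0.21 (SE) and reached -0.87 without control 1 and RAS 3, the 2 libraries that make the ranges overlap. Its neighbour Npy5r, another receptor of the family, was at most 0.071 FPKM.

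Adora1, the adenosine A1 receptor, was at 24.7, 18.8 and 20.2 FPKM in controls 1 to 3 and at 38.0, 28.6 and 17.5 in RAS 1 to 3. RAS 1 and RAS 2 lay above the controls and RAS 3 below all of them, and the spread was 36.6% of the mean with RAS against 14.4% in control. The log2 difference of 0.33 ± 0.26 (SE) rested on single libraries: it was 0.09 without RAS 1 and 0.73 without control 1 and RAS 3. Mybph, a muscle gene on the other strand that shares the locus of Adora1 in the table, was at most 0.133 FPKM.

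Adra2a, the alpha-2A adrenergic receptor that opposes the beta receptors, was at 0.96, 0.55 and 1.71 FPKM in controls 1 to 3 and at 0.68, 1.01 and 0.66 in RAS 1 to 3. All RAS values fell inside the control range, and the log2 difference of -0.18 ± 0.21 (SE) became 0.03 without control 3. The 31 to 85 reads per library give a counting error of about 18.0% at the low end. Within a library the FPKM of Adrb3 was 113 to 215 times that of Adra2a in control and 187 to 237 times with RAS, with overlapping ranges.

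The balance of the sets overlapped between groups, while the make-up of the Gi-coupled set differed. The 3 Gs-coupled receptors summed to 125 to 196 FPKM in control and 158 to 193 with RAS. The 5 Gi-coupled receptors summed to 74.0 to 104 and 69.5 to 102. The ratio of the first sum to the second was 1.76, 1.69 and 1.89 in controls 1 to 3 and 1.75, 1.90 and 2.27 in RAS 1 to 3. RAS 3 and, by a small margin, RAS 2 lay above all controls, while RAS 1 lay among them. Within the Gi-coupled sum, Ptger3 took 53.2 to 60.7% in control and 33.5 to 45.5% with RAS. Niacr1 took 11.3 to 13.0% and 22.7 to 26.6%. Both shares were apart in range; because shares of a sum move together and Niacr1 was chosen on the contrast, they are descriptions.

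**Figure D3:**
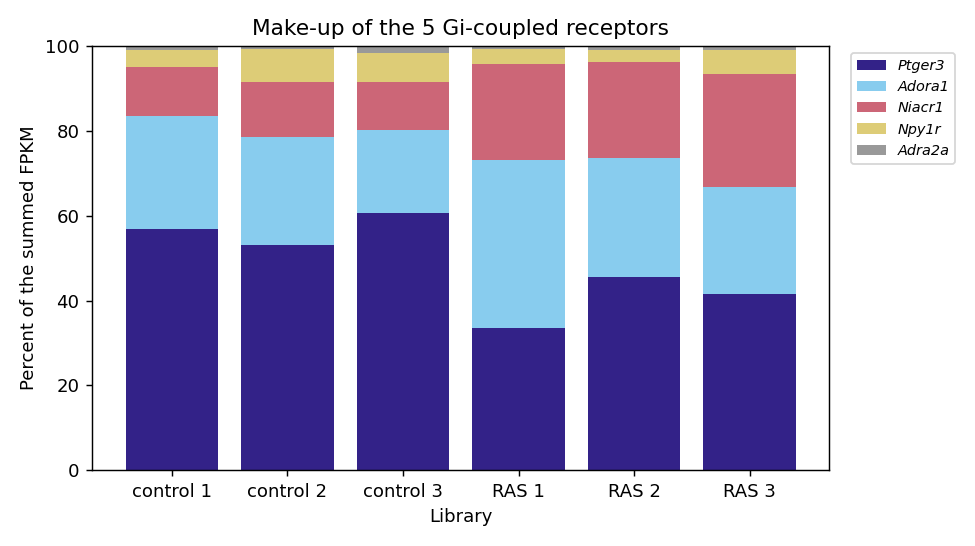
Percent of the summed FPKM of the 5 Gi-coupled receptors taken by each of them, 1 stacked bar per library. Ptger3 takes the largest share in all 3 control libraries (53.2% or more) and Niacr1 takes 22.7 to 26.6% in the RAS libraries; in RAS 1 Adora1 (39.6%) exceeds Ptger3 (33.5%).

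Oxtr showed the largest difference of the 9. It encodes the oxytocin receptor, best known from the uterus, the mammary gland and the brain and also made by fat cells (NCBI gene 18430; chromosome 6, 112473684 to 112489808, minus strand, no overlapping gene). It was at 40.0, 41.8 and 56.4 FPKM in controls 1 to 3 and at 11.2, 18.5 and 9.36 in RAS 1 to 3. The lowest control value was above the highest RAS value, and the ratio of the RAS to the control mean was 0.282. The log2 difference was -1.79 ± 0.25 (SE), -1.69 without control 1 and RAS 3, and between -2.05 and -1.60 in 14 alternatives. Reads numbered 3212 to 4749 in control and 770 to 1482 with RAS. Cav3, a muscle caveolin gene 0.81 kb away, was at most 0.388 FPKM.

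Markers of other cells that carry Oxtr were read beside it. Of 10 markers of mammary epithelium 7 are in the table, summing to 3.25 to 12.6 FPKM in control and 4.95 to 12.4 with RAS. Among them Krt5 and Krt14, keratins of basal cells, reached at most 0.414 and 0.388, Elf5 0.027 and Epcam 0.993. Krt8 and Krt18, keratins of many simple epithelia, reached 7.27 and 4.31, and Trp63 reached 2.04 in control 1. The group ranges of all 7 overlapped, and their part in the Oxtr result was not tested. The 7 smooth muscle and pericyte markers summed to 370, 485 and 506 FPKM in controls 1 to 3 and to 333, 358 and 299 in RAS 1 to 3, apart in range, and 6 of the 7 had a lower mean with RAS. Without Acta2, the most abundant, the sums were 219.6 to 288 and 179.9 to 216.5, still apart, while taken singly only Acta2 of the 7 had ranges apart. None of them was listed at 0 in any library, and 0 of 7 passed the test over all genes. Acta2, smooth muscle actin, was at 192 ± 35.9 and 132 ± 11.8 FPKM (log2 -0.52; limma adjusted p = 0.414). The sum of the 6 skeletal muscle markers was apart too, at 69.1 to 202 FPKM in control and 22.3 to 60.7 with RAS, and 0 or 1 of them was listed at 0 in a library. Nearly all of it was Acta1, at 66.8 to 179.96 and 21.2 to 59.6; the other 5 summed to 0.95 to 21.6 and 1.13 to 1.46 and overlapped. The part of muscle in the Oxtr result was not tested. In bulk tissue, fewer cells that carry a receptor and less of its RNA per cell cannot be told apart.

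By likeness of profile, the root mean square difference between centred log2 values over the 6 libraries among 11044 named genes, the nearest to Niacr1 were Pmepa1 (0.10), Rassf6 (0.15) and Tmem216 (0.17), where the profile of Niacr1 itself has a root mean square of 0.47. Pmepa1, which encodes a membrane protein induced by TGF-beta, was at 27.1, 20.2 and 28.3 FPKM in controls 1 to 3 and 53.7, 56.5 and 40.8 in RAS 1 to 3. The nearest to Oxtr were Creb3l1 (0.40), Sh3pxd2b (0.43) and Adamts15 (0.44), against 0.95 for Oxtr itself. Creb3l1, a transcription factor of secretory cells, was at 11.0 to 13.4 FPKM in control and 3.69 to 5.44 with RAS. The nearest to Adrb3 were Ntf3 (0.08), Lsm10 (0.08) and Selp (0.09), against 0.23. For Niacr1 and Oxtr the difference between the groups shapes the profile, so genes near them are genes with a like difference.

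The other genes of the route were read from 11 lists, 128 of whose 134 entries are in the table. No list had a member past the threshold over all genes. Counts of higher and lower genes below are by the mean of log2(FPKM + 1). By it, 5416 of all 12606 genes (43.0%) were higher with RAS and 7190 lower. Counts of ranges apart are over the tested genes of a list. Over all genes tested, ranges were apart for 5.42% on the higher and 12.5% on the lower side, and no list was tested against these shares. Among 11 tested Gs-coupled receptors besides those above, 9 were higher and 2 lower (median log2 0.06, against -0.04 over all genes), with ranges apart for 4 on the higher and 1 on the lower side. One of the 9, the melanocortin receptor gene Mc5r, had a slightly lower mean FPKM with RAS, 2.96 against 3.00. For Mc2r, the ACTH receptor and a strong lipolytic receptor of mouse fat, the means were 30.6 ± 5.68 FPKM in control and 25.9 ± 2.75 under RAS (log2 -0.22). Tshr, the thyrotropin receptor, was at 49.6, 25.5 and 29.5 in controls 1 to 3 and 24.0, 17.3 and 19.5 in RAS 1 to 3 (log2 -0.71 ± 0.25 SE; limma adjusted p = 0.425). All 3 RAS libraries lay below the controls, control 2 by a small margin. Adcyap1r1, the PACAP receptor (log2 0.48), was at its highest in RAS 3, at 11.7 FPKM, against at most 6.27 elsewhere. Gcgr, the glucagon receptor, followed the same form with 3.72 in RAS 3 and at most 2.05 elsewhere. RAS 3 was also the library with the highest sum of brown and beige fat markers, 967 FPKM against 53.2 to 313 in the others. The sums overlapped between groups, at 53.2 to 313 in control and 139 to 967 with RAS. All 5 tested markers had a higher mean log2 value with RAS. For 2 of them, Cidea and Elovl3, the ranges were apart on the higher side. The part of such fat in these values was not tested. Adora2a, an adenosine receptor that works through Gs where Adora1 works through Gi, was at 8.88 ± 1.60 and 9.27 ± 1.70.

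Of the other Gi-coupled receptors 6 of 13 in the table were tested, 3 higher and 3 lower (median log2 0.01). S1pr1, a sphingosine-1-phosphate receptor of vessel walls, was at 49.9 ± 7.48 and 52.9 ± 10.7 FPKM. Sucnr1, the succinate receptor that restrains lipolysis, was at 22.4, 23.6 and 24.1 in controls 1 to 3 and 40.8, 24.3 and 28.0 in RAS 1 to 3, apart by a narrow gap (log2 0.36). Lpar1, a lysophosphatidic acid receptor, was at 8.02 ± 0.60 and 5.79 ± 0.57 (log2 -0.41; limma adjusted p = 0.325), with ranges apart. Of 7 tested Gq-coupled receptors besides Oxtr, 5 had a higher and 2 a lower mean (median log2 0.17). O3far1, the long-chain fatty acid receptor GPR120, was at 13.2 ± 2.44 and 16.5 ± 2.95 FPKM. Agtr1a and Ednra, receptors for angiotensin II and endothelin, differed by log2 0.43 and 0.17, and Ptger1, another prostaglandin E2 receptor, by -0.22 with ranges apart. In the natriuretic peptide route, a separate lipolytic signal through cyclic GMP, the clearance receptor Npr3 was at 156 ± 9.52 and 145 ± 41.2, Npr1 at 33.4 ± 5.93 and 30.4 ± 4.67 and Npr2 at 22.7 ± 2.90 and 24.9 ± 2.38. Prkg1, the kinase of that route, was at 1.30 ± 0.17 and 0.99 ± 0.08, with ranges apart on the lower side.

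Downstream of the receptors, 9 G protein alpha subunits were tested, 3 higher and 6 lower (median log2 -0.08). Gnas, which encodes the Gs alpha subunit, had means of 516 ± 45.8 FPKM in control and 508 ± 62.5 under RAS. The Gi alpha subunits Gnai2 and Gnai1 were at 157 ± 9.52 and 142 ± 12.6 and at 86.2 ± 11.1 and 78.6 ± 3.21. The third, Gnai3, was at 36.2 to 37.8 and 31.7 to 32.0, apart in range with a log2 difference of -0.20. Of 6 tested adenylyl cyclases 3 were higher and 3 lower (median log2 0.15). Adcy6 and Adcy5, the most abundant, were at 47.3 ± 1.73 and 46.2 ± 3.03 and at 36.2 ± 6.17 and 45.3 ± 4.92, and Adcy4 at 13.3 ± 1.10 and 18.7 ± 2.63 (log2 0.46; limma adjusted p = 0.350), with ranges apart on the higher side.

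Of 11 tested enzymes that break down cyclic AMP, 10 were higher (median log2 0.14), with 0 past the test. Their ranges were apart for 2, both on the higher side. Over all genes tested the share was 17.9% for either side and 5.42% for the higher side. Whether the list differs from these shares was not tested. Pde3b, the phosphodiesterase through which insulin restrains lipolysis, was at 91.8, 83.1 and 76.8 FPKM in controls 1 to 3 and at 117, 105 and 97.0 in RAS 1 to 3 (log2 0.33 ± 0.14 SE; limma adjusted p = 0.468). All 3 RAS libraries lay above the controls. Pde4a also had ranges apart (3.33 ± 0.18 and 3.82 ± 0.05), and Pde2a (46.8 ± 7.07 and 57.4 ± 8.61) and Pde7a (17.1 ± 5.94 and 17.3 ± 3.02) overlapped.

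For protein kinase A, 3 of 10 tested genes were higher and 7 lower. Of the 10, 4 had ranges apart, 1 on the higher and 3 on the lower side. Over all genes tested the shares were 5.42% on the higher and 12.5% on the lower side. Whether the list differs from these shares was not tested. Prkar2b, the regulatory subunit RII-beta typical of fat cells, was at 275, 198 and 238 FPKM in controls 1 to 3 and at 416, 364 and 355 in RAS 1 to 3 (log2 0.68 ± 0.17 SE; limma adjusted p = 0.313). The RAS libraries were all above the controls. Akap12, a scaffold that binds the kinase and beta receptors, was at 40.8, 30.5 and 38.6 and at 17.7, 24.9 and 19.5 (log2 -0.80 ± 0.17 SE; limma adjusted p = 0.261), all below. Pkia, an inhibitor of the kinase, and Prkar2a, another regulatory subunit, had log2 differences of -0.49 and -0.32. Prkaca, the catalytic subunit, was at 50.2 ± 13.9 and 49.3 ± 8.13, and Prkar1a at 86.4 ± 3.43 and 83.9 ± 6.31.

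**Figure D4:**
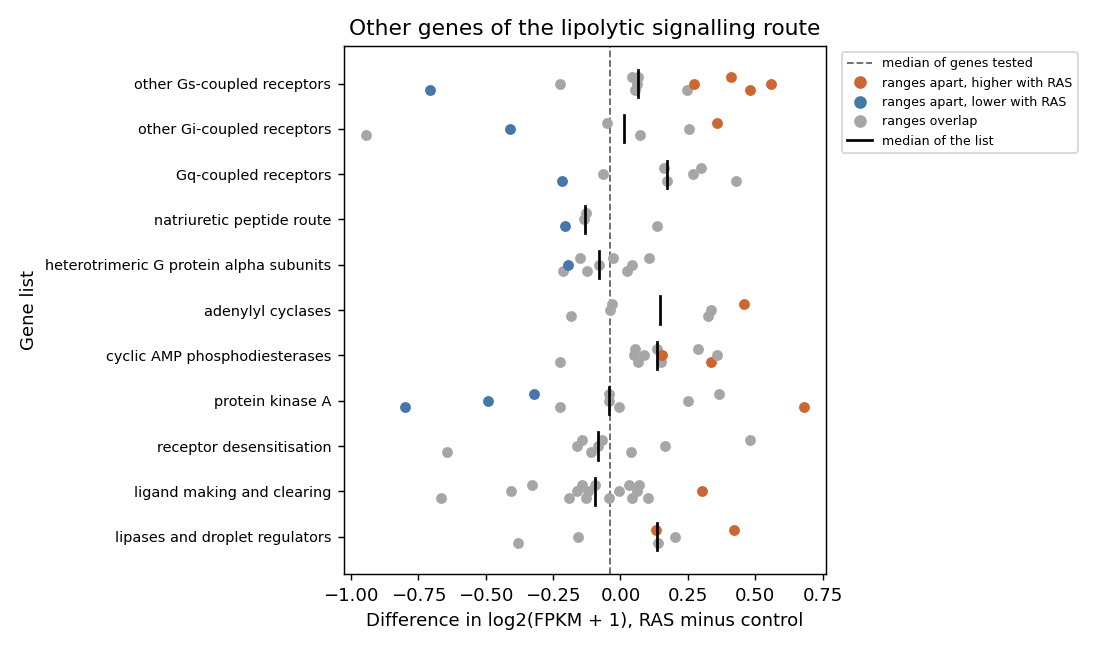
Difference in log2(FPKM + 1), RAS minus control, for each tested gene of 11 lists (dots), coloured by whether the group ranges are apart, with the list median (black) and the median of all genes tested (dashed). Cyclic AMP phosphodiesterases lie mostly to the right of zero (10 of 11), and protein kinase A genes spread from Akap12 at -0.80 to Prkar2b at 0.68.

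Of 9 tested genes that desensitise receptors, 3 were higher and 6 lower, with no ranges apart. Adrbk1, the kinase that phosphorylates active beta receptors, was at 24.1 ± 1.37 and 24.9 ± 2.05 FPKM and its relative Grk6 at 21.7 ± 1.90 and 19.6 ± 2.91. Rgs5, a brake on Gi and Gq signals that also marks pericytes, was at 50.1 ± 14.2 and 33.0 ± 14.2. Of 17 tested genes that make or clear the ligands, 6 were higher and 11 lower (median log2 -0.09). Pla2g16, the fat cell phospholipase that feeds prostaglandin E2 production and so the EP3 receptor, was at 118, 91.7 and 105 in controls 1 to 3 and at 124, 129 and 135 in RAS 1 to 3 (log2 0.30; limma adjusted p = 0.517), the only tested gene of that list with ranges apart. Adk, which removes adenosine, overlapped between groups (log2 0.10). Of 6 lipase and droplet genes, 4 were higher and 2 lower; Pnpla2, the first lipase of the route, was at 768 ± 105 and 1026 ± 113 FPKM, Lipe, hormone-sensitive lipase, at 566 ± 19.7 and 621 ± 38.2, both apart in range, and Plin1, perilipin, at 759 ± 137 and 689 ± 168.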

How the data were processed

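FPKM per gene and sample was used as the authors deposited it; the submitters' processing notes list TopHat2 2.0.9 and Cufflinks 2.1.1, and no source used here names the build or filters. The authors also deposited a scaled count signal, used to say how many reads stand behind a value: 99.36 to 99.43% of its values below 1000 were whole multiples, within 0.05, of 1 value per library. No count model was run. Columns named DH are RAS per the labels' treatment protocol; HC columns were taken as control by elimination, and the 4 columns that hold group values were not used. Loci overlapped the GENCODE M21 gene (GRCm38) of the same identifier for 99.67% of 18403 genes; starts are counted from 1, after adding 1 to the table's.

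Genes with a mean of at least 1 FPKM were tested with limma 3.58.1 in R 4.3.3 (lmFit, eBayes with a trend) on log2(FPKM + 1), two-sided, Benjamini-Hochberg over 12606 genes, threshold 0.05; this scale understates changes of low genes. The procedure was tested on simulated data. Plots were drawn with matplotlib 3.10.9, and summaries made with pandas 2.3.3 in Python 3.11.15. The receptors and lists were chosen with earlier results of these data known. Coupling to G proteins is textbook knowledge. Named list genes are the 3 with the highest mean, and up to 4 with ranges apart, largest difference first; 2 of them are not reported here. Alternatives were a pseudocount of 0.1, no minimum or one of 5 FPKM, quantile and median-ratio scaling, a robust variance model, a replicate block, and leaving out each library in turn. Scaled counts and leaving out control 1 and RAS 3 together were added after seeing the data.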

Additional observations from a re-analysis of the deposited data

How the results depend on the processing

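The receptors' log2 differences moved by less than the spread between replicates in all 126 recomputed values. Many of these outcomes were fixed in advance. A changed FPKM minimum and the replicate block leave a gene's log2 difference as it was. Leaving out 1 of 3 libraries of a group cannot move it by as much as that spread. Agreement in these settings is therefore no check. None of the receptors passed the threshold in those of 15 alternatives in which it was tested. Adra2a was tested only where no minimum was set. With a minimum of 5 FPKM, Adrb1, Gipr and Npy1r were not tested either. Adora1, Ptger3, Niacr1, Npy1r and Oxtr kept their sign in all 14 alternatives run on them. Adrb1, Adrb3, Adra2a and Gipr did not, with values given above. For Niacr1 and Oxtr, whose ranges were apart, leaving out libraries or changing the pseudocount could not turn the sign. Their kept sign there is thus no check. The number of genes past the threshold was 0 to 2 when 1 library was left out: 2 without control 1 (Gm19601, Gm6293), 1 without RAS 1 (H2-T9) and 1 without RAS 2 (Cd1d2). It was 3 without control 1 and RAS 3 (Gm19601, Gm6293, Gm5526). These 5 genes, named after their values were seen, are in none of the lists. Genes with ranges apart numbered 2256, and 3355 to 3873 when 1 library was left out (3458 without RAS 1, 3442 without RAS 2, 3609 without RAS 3, 3873 without control 1) and 5859 without control 1 and RAS 3, where fewer samples make separation easier. With the replicate block 0 genes passed and 1663 had an unadjusted p under 0.05, against 1294 without it. Same-numbered libraries correlated in their deviations from the group means at 0.178, 0.096 and 0.219, each best with its own number. These values are small, the labels name no pairs, and whether the numbers mark pairs was not tested. Of 143 recomputed list medians, 23 moved by at least the spread between replicates. Some of these were of the cyclic AMP phosphodiesterases, whose median kept its sign (0.07 to 0.20). List medians changed sign in at least 1 alternative for other Gi-coupled receptors (-0.10 to 0.18), adenylyl cyclases (-0.04 to 0.32), protein kinase A (-0.15 to 0.04), receptor desensitisation (-0.15 to 0.05) and the lipases (-0.04 to 0.22). In the order of levels with RAS, 2 receptors changed places without RAS 2 or without RAS 3; the control order was kept. Adrb1, Adra2a and Gipr had the fewest reads, 26 to 104, with counting errors of 15.4 to 19.6% at the lowest and larger spreads between control libraries (29.3 to 54.5%).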
